A study of Mus musculus with 20 samples.

Results

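Whole left and right atria of adult female mice with 1 G125R allele of Tbx5 were compared by RNA sequencing, with 5 libraries from each side. The mutants, written Tbx5 G125R/+, carry a germline point mutation made with CRISPR-Cas9 and keep an unchanged second copy of Tbx5, which encodes a T-box transcription factor. All mice were 8 to 12 weeks old. The series also holds 5 left and 5 right atria from mice labelled control, of the same sex and age range, so the 10 mutant libraries were taken by their labels from 20 in all. The controls were used only to ask whether the left-right difference itself differed between genotypes. The labels name no animals, so it is not known whether a left and a right library came from the same mouse, so a p-value here sets a difference against library-to-library variation, which may be technical. The study states that its right atrial samples included the sinoatrial node.

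The atria differ in origin and in the genes they use. The sides of the embryo are first set apart by Nodal signals on the left, which are passed on to the developing organs. Bmp10, a secreted ligand of the bone morphogenetic protein (BMP) family, is made in the adult heart mainly by right atrial muscle. The sinoatrial node, the natural pacemaker, lies where the superior caval vein enters the right atrium, and Tbx5 is needed for atrial identity and for the conduction system on both sides.

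Left and right libraries differed in their make-up. Total depth was 20.8 to 24.3 M reads in left mutants and 18.2 to 26.8 M reads in right mutants (exact two-sided permutation p = 0.413). Reads of the mitochondrial rRNA genes took 19.5% to 42.2% of a left library and 7.37% to 15.7% of a right library, and 17587 to 19170 against 19832 to 20590 genes had a read (exact permutation p = 0.00794 for each, the smallest that 5 against 5 libraries can give). With those rRNA genes set aside, 12.2 to 17.0 M reads per left library and 16.1 to 23.6 M per right library were analysed. The 2 atria were also deposited in separate tables, and 7682 genes appeared in the left table only.

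The left-right difference followed the base composition of the genes. The median log2 difference, left minus right, was 1.70 among genes with 35% to 40% GC in their exons and -2.15 among those with 55% to 60% GC (Spearman correlation across genes -0.853, with genes not being independent replicates). The same correlation was -0.856 in controls. Atrium, table and any difference in library handling cannot be told apart in this design. Each comparison was therefore made a second time after the trend with GC content and transcript length had been removed from every library, which narrowed the interquartile range of the log2 differences from 2.33 to 0.826. Below, a gene is called higher in 1 atrium where both fits called it in the same direction at an adjusted p under 0.05. Values are given from the uncorrected fit first and the corrected fit second.

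**Figure D1:**
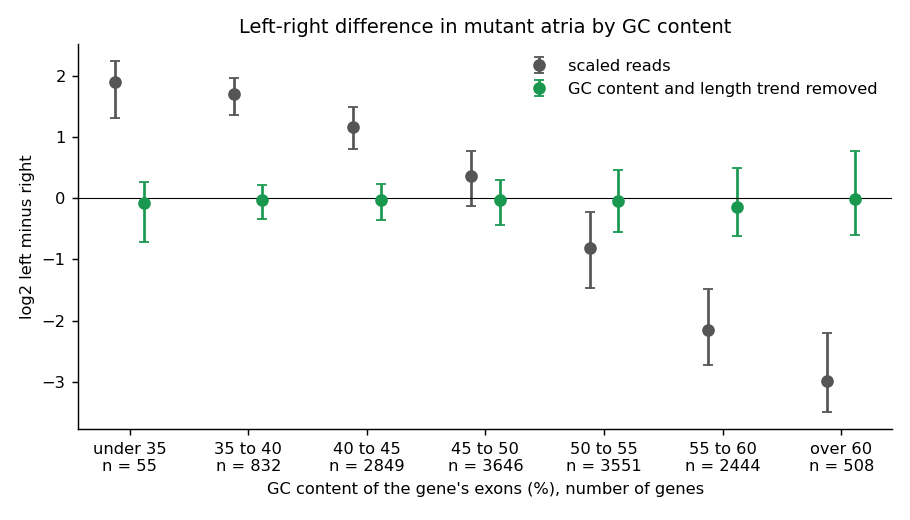
Median log2 difference, left minus right mutant atria, by the GC content of a gene's exons. Points are medians and bars run from the lower to the upper quartile of the genes in a bin. Before correction (grey) the medians fall from 1.89 under 35% GC to -2.99 over 60% GC, and after removal of the trend (green) they lie between -0.143 and -0.0166.

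Of 13938 genes tested, 5368 (38.5%) were called higher in the left and 5732 (41.1%) higher in the right atrium without correction, 79.6% in all, and 3226 (23.1%) and 4349 (31.2%) differed by at least 2-fold. The values of the 5 left and 5 right libraries did not overlap at all for 69.3% of the genes. After correction 3326 and 3733 genes were called. Both fits called 1889 genes (13.6%) higher left and 2509 (18.0%) higher right, of which 383 (2.75% of those tested) and 1047 (7.51%) differed by at least 2-fold in each fit. A further 1353 genes were called in opposite directions by the 2 fits. These shares are the background for each group of genes below: a list with about these shares differs little from genes in general. In whole tissue, fewer cells of a type and less RNA per cell cannot be told apart.

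**Figure D2:**
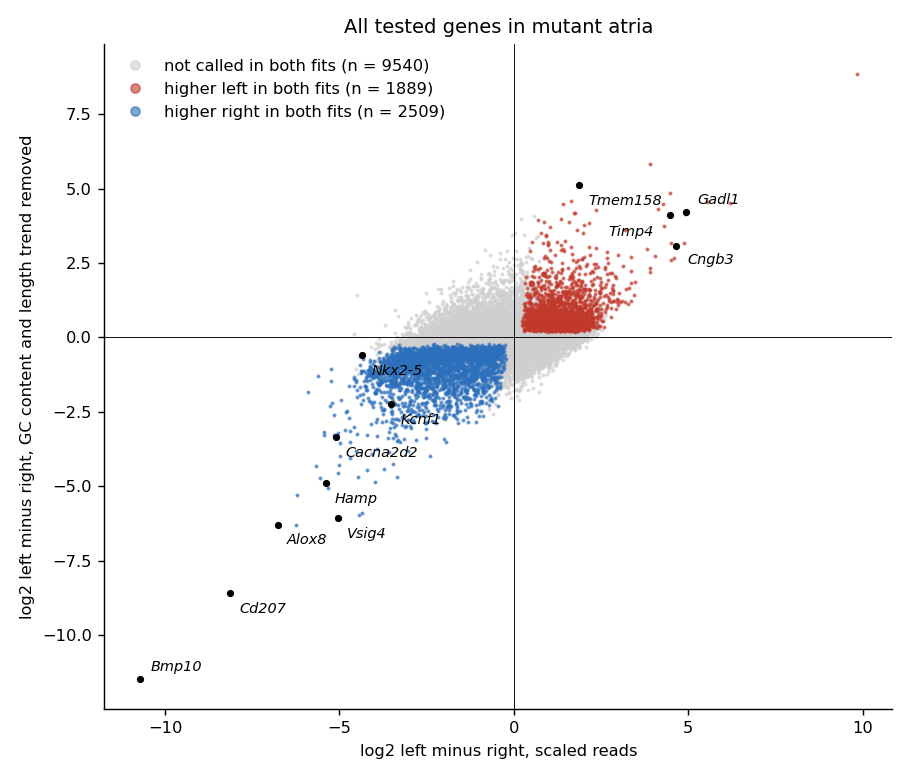
Log2 difference, left minus right, of all 13938 tested genes in mutant atria, without correction (horizontal) and with the GC content and length trend removed (vertical). Red points (n = 1889) and blue points (n = 2509) were called in the same direction by both fits. Bmp10 lies at -10.71 and -11.46, and Gadl1 at 4.94 and 4.22. The highest point is the processed pseudogene Vamp7-ps, which had no read in any right library.

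Bmp10 marked the right atrium in every mutant. Its normalized reads, meaning reads scaled to a common depth over the 10 libraries, were 19132, 25632, 21129, 26133 and 23416 in right mutants 1 to 5. In left mutants 1 to 5 they were 23.5, 10.3, 1.5, 14.9 and 43.4. No left library came near any right one. The log2 difference was -10.71 ± 0.55 (SE, n = 5 against 5, limma adjusted p = 2.96e-09) and -11.46 ± 0.59 after correction, the largest in size of all genes named here. In the fit over all 20 libraries the difference was -10.71 in mutants and -10.87 in controls, and the change between genotypes of 0.16 ± 0.70 did not pass the test (adjusted p = 0.927).

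The promoters of Bmp10 and of Hamp are shown because these 2 genes of secreted peptides were among the most one-sided of all. Each stretch runs from 250 bases before to 50 bases after the transcription start (RefSeq, GRCm38.p6), 5′ to 3′ on the strand of the gene, with the GATA factor letters AGATAA, or TTATCT on the other strand, in capitals.
Bmp10, chr6:87428744-87429043, plus strand: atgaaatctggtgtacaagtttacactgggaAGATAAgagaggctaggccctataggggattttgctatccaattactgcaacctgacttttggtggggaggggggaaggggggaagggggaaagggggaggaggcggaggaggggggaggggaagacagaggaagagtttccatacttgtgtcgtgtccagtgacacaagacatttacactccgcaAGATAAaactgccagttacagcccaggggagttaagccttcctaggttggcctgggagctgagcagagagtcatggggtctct
Hamp, chr7:30943980-30944279, minus strand: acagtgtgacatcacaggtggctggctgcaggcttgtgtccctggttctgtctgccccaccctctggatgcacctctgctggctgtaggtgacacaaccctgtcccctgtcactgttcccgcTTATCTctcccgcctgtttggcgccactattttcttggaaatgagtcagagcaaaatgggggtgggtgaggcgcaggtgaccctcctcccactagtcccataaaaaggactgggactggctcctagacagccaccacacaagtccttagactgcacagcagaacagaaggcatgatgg
The Bmp10 window held AGATAA at 219 and at 33 bases before the start, and the Hamp window held TTATCT at 128 bases before it. Of 32851 promoters of this length, 11.18% held these letters on either strand. The T-box letters GGTGTNA (10.17% of promoters), searched on both strands, did not occur in either window. A match is a description of the sequence only.

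Genes of the left-right cascade of the embryo were mostly near 0 in adult atria. Of the 11 examined here, Nodal, Lefty2, Cfc1, Gdf1, Foxh1, Tdgf1 and Ccdc40 had at most 5.47 normalized reads in any mutant library and Lefty1 at most 10.9, so they were not tested. Among the 3 tested, the activin receptor Acvr2b was higher right, with 48.2 to 60.1 against 1.5 to 7.4 reads (-3.72 ± 0.32 and -2.39 ± 0.33), while Ift88 (1.01 and -0.42) and Dand5 (-0.72 and 0.81) were not called in the same direction by both fits.

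Tbx5 itself, the mutated gene, was higher in the right atrium. Left mutants 1 to 5 had 2351, 1953, 2130, 2066 and 2589 normalized reads and right mutants 1 to 5 had 4029, 5265, 4863, 4522 and 5109. The difference was -1.10 ± 0.12 (adjusted p = 1.22e-06) and -0.62 ± 0.09 after correction (adjusted p = 0.00012). Values did not overlap, and the difference was -1.18 in controls against -1.12 in mutants in the fit over 20 libraries (difference 0.06 ± 0.23, adjusted p = 0.916). The counts do not separate the 2 alleles.

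**Figure D3:**
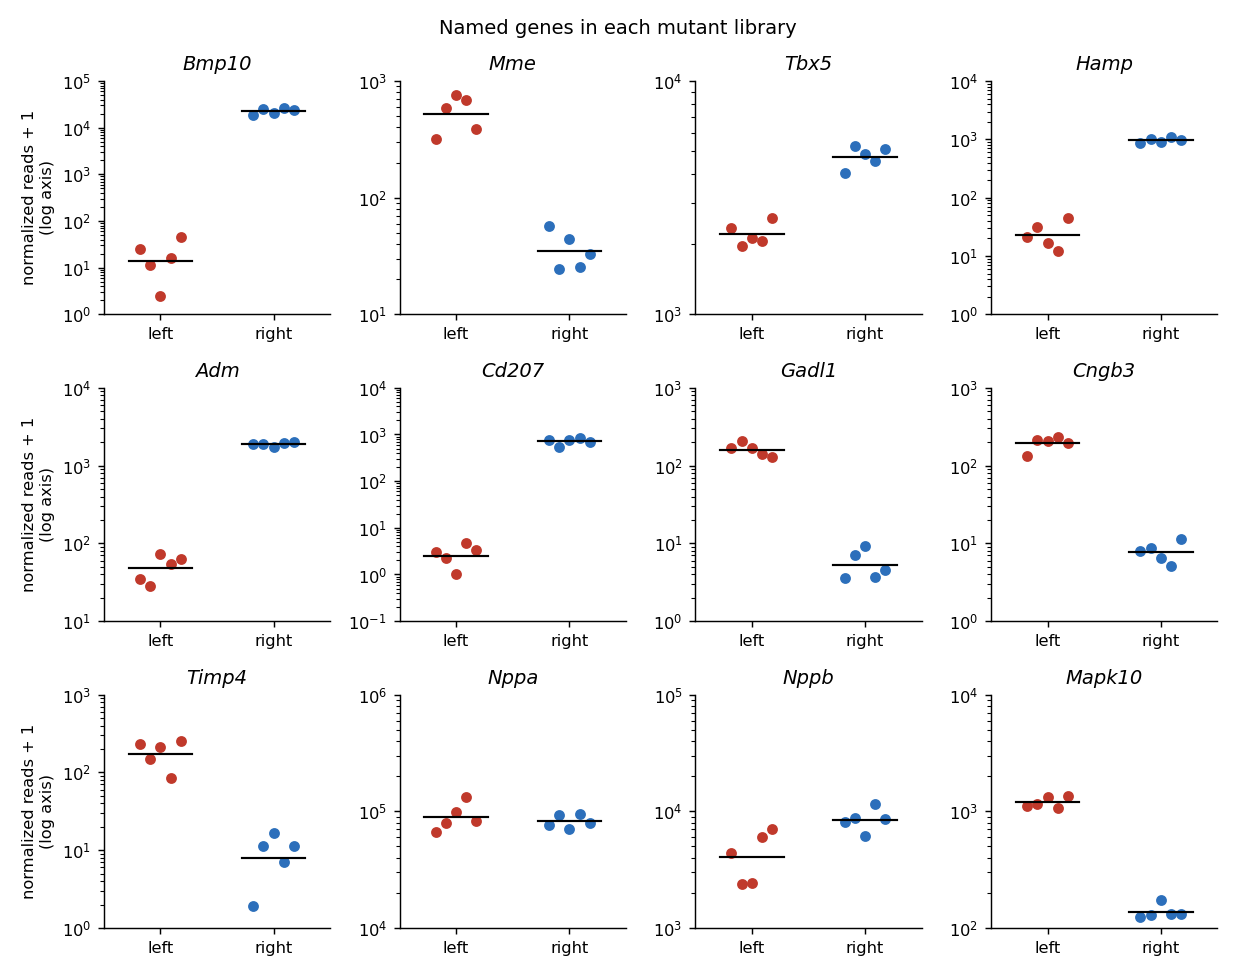
Normalized reads plus 1 (log axis) of 12 genes in the 5 left (red) and 5 right (blue) mutant libraries, each point 1 library and each line the geometric mean. Bmp10, Tbx5, Hamp, Adm and Cd207 are above the left in every right library, Mme, Gadl1, Cngb3, Timp4 and Mapk10 are above the right in every left library, and the Nppa values overlap.

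The next genes were taken from the top of the right-sided ranking and form no list. Hamp encodes hepcidin, the peptide that lowers iron export from cells, and had 857 to 1082 normalized reads in right mutants against 11.1 to 43.4 in left mutants (-5.39 ± 0.28 and -4.88 ± 0.25). Adm, the vasodilator adrenomedullin, had 1743 to 2033 against 27.1 to 71.5 reads (-5.33 ± 0.23 and -5.06 ± 0.23). This ranking took only genes whose left and right libraries do not overlap, so the lack of overlap here is no result. Ptgds, which makes prostaglandin D2, had 355 to 685 against 4.4 to 25.1 reads (-5.04 ± 0.37 and -3.20 ± 0.30). Alox8, a lipoxygenase, had 140 to 181 reads on the right and 2.0, 0, 0, 0 and 1.1 in left mutants 1 to 5. A2m, the secreted protease inhibitor alpha-2-macroglobulin, behaved alike, with 98.3 to 178 against 0 to 2.6 reads. Slc24a4, a sodium, calcium and potassium exchanger, had 234 to 393 against 1.9 to 16.3 reads (-5.01 ± 0.42 and -4.27 ± 0.38). All 6 genes were higher right at an adjusted p of at most 2.34e-06 in each fit. Gdf7, a BMP family ligand, and Atoh8, a bHLH transcription factor, were also higher right, but the size depended on the fit: -5.60 became -1.30 for Gdf7 and -5.20 became -2.20 for Atoh8. The corrected Gdf7 call was lost without right mutant 2, 3 or 4 or left mutant 3 (-1.26 to -1.13, adjusted p = 0.0507 to 0.0642).

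Among the largest right-sided differences were 4 genes known from myeloid and antigen-presenting cells, picked from the ranking and not from a list. Cd207, the C-type lectin langerin, had 776, 550, 742, 845 and 690 normalized reads in right mutants 1 to 5 and 2.0, 1.3, 0, 3.7 and 2.3 in left mutants 1 to 5. Its difference of -8.13 ± 0.34 (-8.59 ± 0.33 after correction) was second only to that of Bmp10 among the genes named here as higher right. Vsig4, a complement receptor of tissue macrophages, had 385 to 564 against 7.7 to 26.0 reads (-5.04 and -6.06). Cxcl13, a chemokine that attracts B cells, had 173 to 324 against 7.4 to 19.4 reads (-4.44 and -5.95). Cd74, the invariant chain of MHC class II, had 1107 to 1575 against 27.1 to 46.9 reads (-5.14 and -3.27). Lack of overlap between the 2 sides was a condition of that ranking, and held for 69.3% of all tested genes.

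General macrophage markers had smaller differences in the same direction. Of 10 tested, 8 were higher right and none higher left, with a list median of -1.52, or -1.20 after correction, against -0.04 and -0.05 over all genes. The complement genes C1qa (782 to 1183 against 36.1 to 126 reads) and C1qb (405 to 616 against 14.2 to 53.1) fell between fits from -3.71 to -1.14 and from -3.96 to -1.87. Csf1r, the receptor for colony stimulating factor 1, gave -2.81 and -1.45, and Lyz2, lysozyme, gave -1.30 and -1.60. Mrc1, the mannose receptor, chosen after its values were seen, was called higher left without correction (1.21 ± 0.17) but not with it (0.09 ± 0.14, adjusted p = 0.615). The summed level of the list was 3584 to 7275 in left and 6704 to 9550 in right mutants, so the groups overlapped slightly. Its part in the values of Cd207, Vsig4, Cxcl13 and Cd74 was not tested.

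Of 24 sinoatrial node genes examined here 22 were tested, and 8 were higher right and none higher left, a split that turned to 5 right and 6 left under quantile normalization. The list median was -0.99, and -0.45 after correction (-0.39 and 0.11 under quantile normalization). Cacna2d2, an accessory subunit of calcium channels, had 1671 to 2755 normalized reads in right mutants against 40 to 102 in left mutants (-5.10 ± 0.22 and -3.34 ± 0.20). Cpne5, a calcium-dependent membrane binding protein enriched in the node, had 1302 to 1933 against 61.3 to 190 reads (-3.94 ± 0.23 and -3.74 ± 0.22). These were the members with the largest difference in each fit. Ryr3, a ryanodine receptor that releases stored calcium, had 749 to 1620 against 139 to 253 reads (-2.76 and -2.62). Rgs6, a brake on muscarinic signalling, had 1232 to 1516 against 308 to 477 reads (-1.83 and -1.65). Cacna1d, the L-type channel of pacemaker cells, gave -1.68 and -1.52, Cacna2d3 gave -1.09 and -1.16, and Cacna1g, a T-type channel, gave -2.96 and -0.58. Vsnl1, a neuronal calcium sensor, was low in all libraries, with 13.7 to 36.6 reads on the right and 5.1 to 18.3 on the left (-0.90, adjusted p = 0.0314, and -2.14). Its uncorrected call was lost without right mutant 2 (adjusted p = 0.0616), 3 (0.0579) or 5 (0.0859) and without left mutant 1 (0.0712).

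Most pacemaker channels and node transcription factors were not called in the same direction by both fits. Hcn4, the main pacemaker channel, had 107, 57.4, 73.8, 26.6 and 84.9 normalized reads in right mutants 1 to 5 and 11.2, 2.6, 2.9, 9.3 and 11.4 in left mutants 1 to 5. The values did not overlap and gave -3.13 ± 0.45 (adjusted p = 2.06e-05), but -0.81 ± 0.41 after correction (adjusted p = 0.116). Hcn2 gave -3.02 and then 0.51 (adjusted p = 0.0745). Shox2, a homeobox factor that opposes Nkx2-5 in the node, had 32.8 to 103 reads on the right and 26.3 to 81.7 on the left, with overlap and no call in either fit (-0.60, adjusted p = 0.118, and -0.54, adjusted p = 0.205). Without right mutant 4 or left mutant 4 the uncorrected Shox2 difference passed the test (-0.88, adjusted p = 0.0166, and -0.79, adjusted p = 0.0389). Tbx3, the repressor that marks the conduction system, had 50.3 to 123 reads on the left and 63.9 to 146 on the right (-0.10, adjusted p = 0.738), and was called higher left after correction (1.19, adjusted p = 0.00384) and under quantile normalization (0.67, adjusted p = 0.0432). Tbx18 gave 0.78 and 0.23, and Bmp4 gave -1.10 and -0.37, each without a call after correction. Isl1, a further node factor, was at 0 in all left libraries and at 0 to 4.38 in right libraries, below the minimum for testing.

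**Figure D4:**
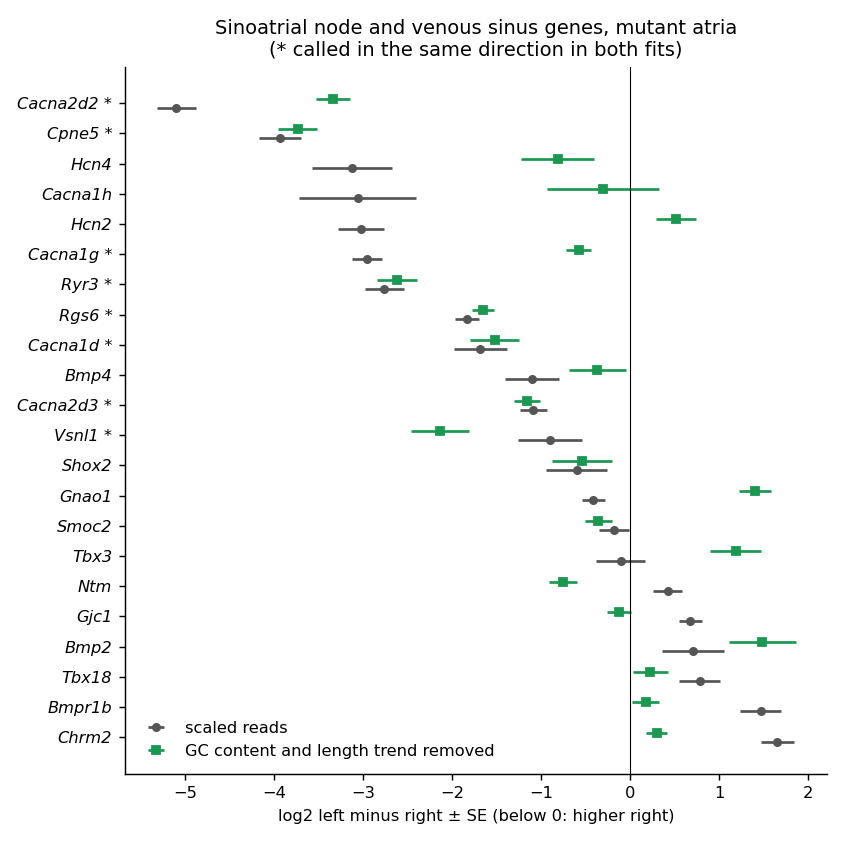
Log2 difference, left minus right, of 22 tested sinoatrial node and venous sinus genes in mutant atria, with standard errors (n = 5 against 5), without correction (grey circles) and with the GC content and length trend removed (green squares). Stars mark the 8 genes called in the same direction in both fits, all of which lie right (below 0).

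A gene of noradrenaline synthesis was higher right as well. Dbh, which converts dopamine to noradrenaline, had 376, 479, 391, 479 and 500.4 normalized reads in right mutants 1 to 5 and 35.7, 23.2, 8.8, 14.9 and 5.7 in left mutants 1 to 5 (-4.83 ± 0.37 and -3.12 ± 0.35). The 13 measured genes of the neuron list, Dbh included, summed to 498 to 631 on the right and 68.6 to 119 on the left. Dbh made up a large part of the right sum, so the sum is no separate measure of neurons. Of the 13, 9 were below the minimum for testing. Chat and Sst, which define cholinergic and somatostatin neurons, were at 0 in all mutant libraries. Dbh was the only member of the list called by both fits. Its source among the cells of the atria was not tested.

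Of 33 tested BMP pathway genes, 9 were higher right and 1, Bmp3, higher left. The counts were 8 and 7 under quantile normalization, 9 and 0 with TMM scaling, and 15 and 0 when scaled to library totals alone. The 9 higher right included the ligand Bmp10 and its endothelial receptors Eng and Acvrl1. The other 23 were not called in the same direction by both fits, among them the receptors Bmpr2 and Acvr2a and the genes Id1, Smad6 and Smad7. The co-receptor Eng had 2807 to 4502 normalized reads on the right and 239 to 389 on the left (-3.53 ± 0.15 and -1.40 ± 0.13). The type 1 receptor Acvrl1 had 500.2 to 699 against 79.9 to 136 reads (-2.44 and -0.51, corrected adjusted p = 0.00715). The target gene Id3 had 840 to 1292 against 142 to 371 reads (-2.43 and -0.80, corrected adjusted p = 0.0423), a corrected call that was lost without right mutant 1, 3, 4 or 5 or left mutant 1, 2 or 5 (-0.84 to -0.60, adjusted p = 0.0576 to 0.103). The endothelial list, which marks the cells that carry these receptors, had 3 of 9 members higher right and none higher left, and its summed level was 13909 to 15768 in left and 25168 to 34355 in right mutants without overlap. Among its members Vwf, von Willebrand factor, had 8632 to 15010 against 518 to 1033 reads (-4.16 and -2.14), a large part of the right sum. Tie1, Cldn5, Cdh5, Emcn, Tek and Flt1 were not called by both fits, and the sum was not corrected for GC content. What part the endothelial share had in the receptor values was not tested.

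The natriuretic peptides are hormones that atrial muscle releases when stretched. Nppa had 67042, 78672, 99383, 131281 and 81878 normalized reads in left mutants 1 to 5 and 75682, 93561, 70387, 95115 and 79953 in right mutants 1 to 5. The values overlapped and the difference of 0.11 ± 0.21 did not pass the test (adjusted p = 0.621), while the corrected value was 1.69 ± 0.27 (adjusted p = 0.000166). Nppb was higher right, with 6123 to 11629 against 2373 to 6988 reads (-1.07 ± 0.29 and -1.39 ± 0.27), although its libraries overlapped. Of the 2 proteases that process these hormones, Furin was higher right (1897 to 2414 against 204 to 269 reads, -3.17 and -1.38) and Corin higher left (12817 to 21518 against 9255 to 12861 reads, 0.61 and 0.40), although quantile normalization left 0.01 of the uncorrected Corin difference (adjusted p = 0.907) and its corrected call was lost without left mutant 3 (0.36, adjusted p = 0.0515). The receptor Npr1 gave -1.16 and, after correction, 0.99, so that no direction is given for it.

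Of 26 cardiac transcription factors examined, 7 were higher left and 2 higher right. Scaling to library totals alone gave 2 and 5. The list median was -0.02, and 0.49 after correction. The left group held Prox1, a homeobox factor also found in lymphatic vessels, with 1575 to 2893 normalized reads in left and 721 to 1209 in right mutants (1.23 and 0.47). On the right, beside Tbx5, stood Nkx2-5, a partner of Tbx5 at many cardiac genes, with 565 to 701 against 20.6 to 50.1 reads. Its value depended strongly on the fit, from -4.35 ± 0.20 to -0.59 ± 0.18 (corrected adjusted p = 0.0138, a call that was lost in the fit over all 20 libraries), and its exons have a GC content of 67.1%.

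Ion channel genes were split between the sides. Of 31 tested potassium channel genes, 11 were higher left and 6 higher right (5 and 8 when scaled to library totals alone), and of 26 sodium and calcium channel genes 7 and 7 (8 and 4 under quantile normalization, 3 and 10 when scaled to library totals alone). The potassium channel genes higher left were Kcnd2, Kcnj3, Kcnn3, Kcnab1, Kcnv2, Kcnma1, Kcnd3, Kcnk2, Kcnn2, Kcna1 and Kcna5. The sodium and calcium channel genes higher left were Fgf12, Cacna2d1, Scn4b, Fgf13, Cacnb4, Scn3a and Scn3b. Values are given below for 5 of those higher right. Kcnh2, which carries the rapid delayed rectifier current, had 2318 to 2941 normalized reads on the right and 231 to 352 on the left (-3.28 and -0.37, corrected adjusted p = 0.00633). Kcnf1, a silent potassium channel subunit, had 345 to 548 against 27.7 to 59.4 reads (-3.51 and -2.23). Abcc8, the sulfonylurea receptor that forms atrial ATP-sensitive channels, had 3155 to 4765 against 464 to 1269 reads (-2.71 and -0.58). Among these 3 only Kcnf1 kept a difference of over 2-fold after correction. Cacnb3, a calcium channel beta subunit, and Scn4a, a sodium channel best known from skeletal muscle, were higher right by -3.89 and -2.34, or -1.01 and -0.91 after correction. Chrm2, the muscarinic receptor of the atria, was called higher left without correction (1.66) but not with it (0.30, adjusted p = 0.0515).

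Among contractile genes more were higher right than left. Of 44 tested sarcomere genes 17 were higher right and 3 higher left (27 and 1 when scaled to library totals alone), with a median of -1.46, or -0.30 after correction. Myl4, the atrial essential light chain, had 77777 to 101907 normalized reads on the right and 14550 to 26563 on the left (-2.22 ± 0.19 and -1.68 ± 0.14). Mybphl, a myosin binding protein of atria and conduction system, had 12673 to 18327 against 1767 to 4570 reads (-2.56 and -0.91). Of 7 tested genes of the ventricular chamber list, 4 were higher right (Myh7, Myl3, Kcnip2 and Myl2), 2 higher left (Pln and Hey2) and Irx5 was not called by both fits. Myh7, the slow heavy chain, gave -3.24 and -1.36, Tnni1, slow troponin I, gave -3.28 and -3.50, and Myl3, the ventricular essential light chain, had 79.2 to 155 reads on the right against 0 to 5.7 on the left (-5.04 and -4.56). Des, desmin, gave -2.65 and -0.76. The 3 sarcomere genes higher left were Xirp2 (1.56 and 0.42), Fhl1 (1.06 and 1.18) and Lmod3 (1.05 and 0.66). Pln, which encodes the calcium pump inhibitor phospholamban, had 60257 to 167026 reads on the left and 12391 to 16892 on the right (2.77 ± 0.23 and 0.99 ± 0.14). The summed level of 7 cardiomyocyte markers was 674504 to 1528416 in left and 1314377 to 2376880 in right mutants, and its part in these values was not tested.

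Glycolysis genes encode enzymes that break down glucose. Of 17 tested glycolysis genes 11 were higher right and none higher left, with a median of -1.80, or -0.58 after correction. Aldoa, aldolase A, had 26672 to 31051 normalized reads on the right and 3046 to 7581 on the left (-2.75 and -0.79), and Pgam2, the muscle phosphoglycerate mutase, gave -2.91 and -0.89. Of 28 tested ribosomal protein genes 14 were higher right and none higher left, with medians of -0.97 and -0.64, while quantile normalization gave 14 and 3. Rplp0, of the ribosomal stalk, had 3071 to 3648 against 407 to 537 reads (-2.98 and -2.12). Against these stood the mitochondrially encoded mRNAs, which made up 6.60% to 11.6% of the analysed reads in left and 2.34% to 3.46% in right mutants (exact permutation p = 0.00794). All 9 tested genes of that list were called higher left without correction, but only 3 with it, and 2 of these 3, mt-Co3 and mt-Atp6, had no read in any right library.

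On the left side, Gadl1, Cngb3 and Timp4 had the largest uncorrected differences among named protein-coding genes averaging 50 or more reads. Gadl1, a decarboxylase of the beta-alanine and carnosine pathway, had 168, 206, 168, 139 and 128 normalized reads in left mutants 1 to 5 and 2.6, 6.1, 8.2, 2.7 and 3.5 in right mutants 1 to 5 (4.94 ± 0.29 and 4.22 ± 0.29). Cngb3, a cyclic nucleotide-gated channel subunit best known from cone photoreceptors, had 131 to 234 against 4.1 to 10.4 reads (4.65 ± 0.25 and 3.08 ± 0.23). Timp4, a tissue inhibitor of metalloproteinases enriched in the heart, had 228, 150, 210, 83.5 and 250.3 against 0.9, 10.4, 15.7, 6.1 and 10.4 reads (4.47 ± 0.51 and 4.12 ± 0.51). Genes whose sides overlap were passed over in this ranking. Timp4 lies within the gene Syn2, which is on the other strand, and the kit did not mark strand, so reads of the 2 cannot be told apart.

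Further genes from the top of the left-sided ranking form no list. Mapk10, the JNK3 kinase best known from neurons, had 1071 to 1345 normalized reads on the left and 123 to 172 on the right (3.13 ± 0.13 and 2.40 ± 0.15). Uts2d, which encodes a urotensin-related peptide, had 472 to 929 against 30.1 to 53.1 reads (3.89 and 2.32). Dio2, the deiodinase that activates thyroid hormone, had 166 to 492 against 12.3 to 38.3 reads (3.36 and 2.24). Mme, neprilysin, which degrades natriuretic peptides, had 317 to 759 against 23.5 to 56.1 reads (3.90 and 2.19). Here too, only genes whose left and right libraries do not overlap were ranked. Ddit4l, an inhibitor of mTOR signalling, gave 3.37 and 2.69, Dlgap1, a scaffold of synapses, gave 3.19 and 3.60, Slc24a2, an ion exchanger, gave 2.92 and 2.0, and Has2, which makes hyaluronan, gave 3.0 and 1.5. Removal of the GC trend made some left-sided differences larger. Tmem158 gave 1.87 and 5.11, Frmpd3 gave 2.37 and 4.26, the small GTPase Arf6 gave 1.35 and 3.98, and Tsc22d1, a TGF-beta induced leucine zipper gene, gave 0.98 and 3.21, all with an adjusted p of at most 0.000499 in each fit.

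Of 6 tested lymphatic vessel markers, 3 were higher left and none higher right, with medians of 0.86 and 0.37 (2 and 1 members when scaled to library totals alone). Mmrn1, multimerin 1, had 207 to 637 normalized reads on the left and 4.1 to 71.8 on the right (4.04 ± 0.57 and 2.75 ± 0.54), Reln, reelin, had 66.3 to 134 against 10.2 to 43.1 (2.18 and 2.77), and the third was Prox1. Flt4, Pdpn and Lyve1 were not called by both fits. The summed level of the list was 2676 to 4693 in left and 1844 to 2516 in right mutants, without overlap. Prox1, given above among the cardiac transcription factors, made up a large part of this sum, so the sum is no measure of lymphatic vessels alone. Of tissues that lie next to the atria, most markers of lung epithelium, airway cilia and thymocytes were close to absent. Sftpc of lung epithelium was at 0 in all mutant libraries. Below the minimum for testing were 7 of 8 lung genes, 3 of 3 of airway cilia and 4 of 5 of thymocytes. Other such lists had reads. White adipocyte genes summed to 51.6 to 215.9 on the left and 55.3 to 808.5 on the right, with none called by both fits. Sums for brown adipocyte genes were 716.7 to 1237.7 and 2865.7 to 3320, and for valve and cartilage-like genes 216.3 to 465.9 and 648.3 to 1352.5. What part such tissue had in other values was not tested.

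The left-right difference was then compared between mutants and controls in a fit over all 20 libraries. Of 13842 genes tested, 11 (0.0795%) passed the test of the difference, 4 with a positive and 7 with a negative value, and 1123 had an unadjusted p under 0.05. The difference correlated with GC content across genes (Spearman 0.568), and 9 of the 11 genes were also called after correction. Leaving out 1 library at a time reduced the count to 0 for 7 of the 20 libraries, with 730 to 1116 genes at an unadjusted p under 0.05 in those limma fits.

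For Nfasc the genotypes lay apart mainly in the right atrium. Nfasc encodes neurofascin, a cell adhesion molecule of axons. Right mutants 1 to 5 had 221, 251, 233, 219 and 311 reads and right controls 1 to 5 had 23.6, 17.5, 15.8, 50.3 and 23.0, while left mutants had 1.1 to 6.1 and left controls 1.3 to 2.6. The difference was -5.67 in mutants and -3.04 in controls (-2.62 ± 0.47, adjusted p = 0.0315).

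**Figure D5:**
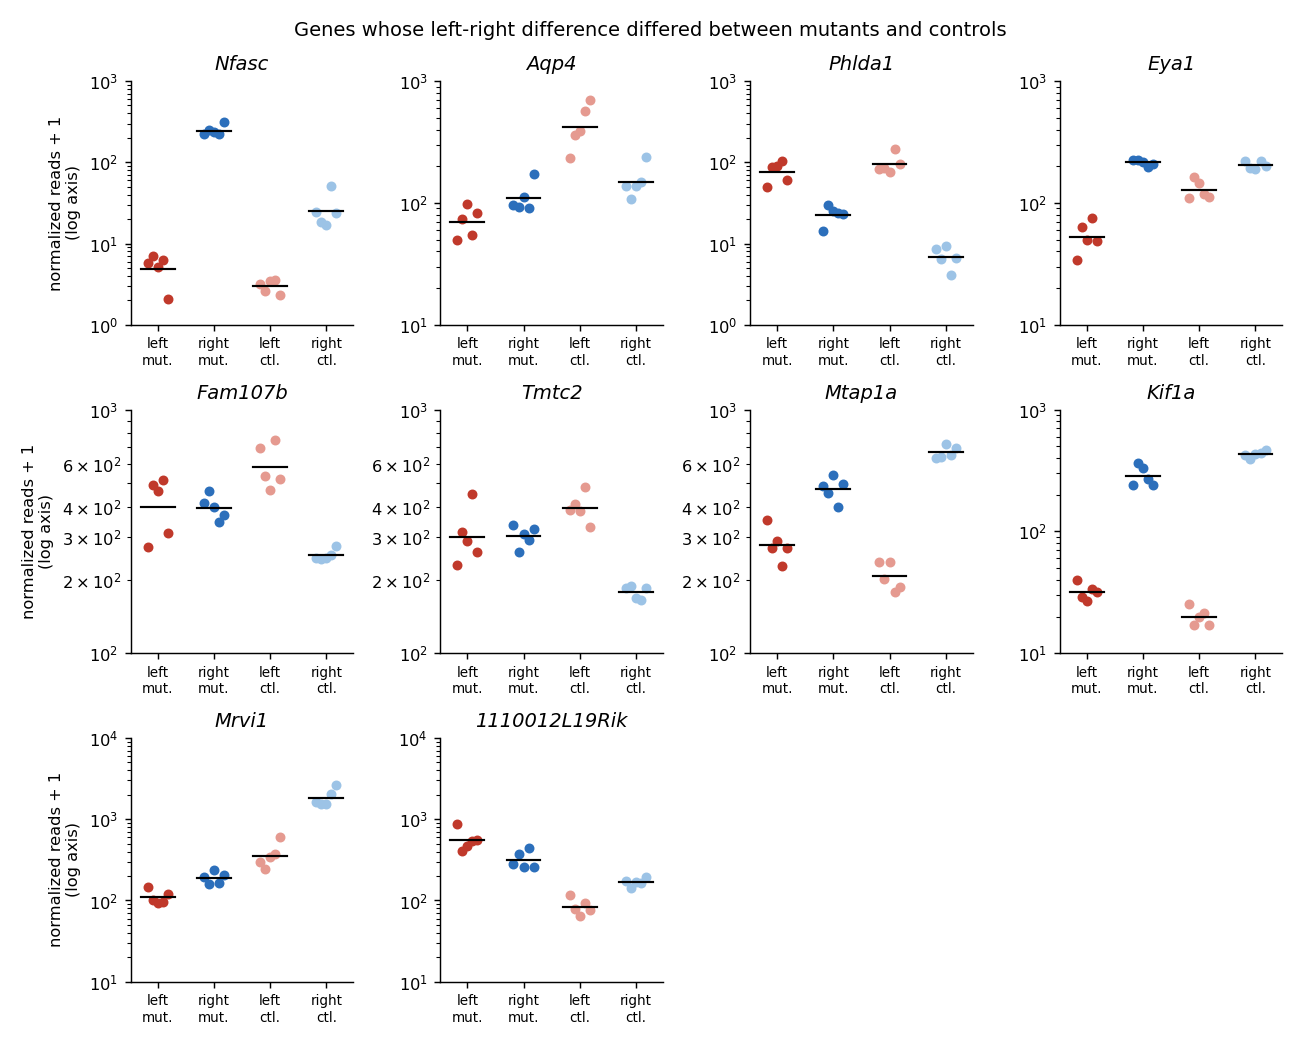
Normalized reads plus 1 (log axis) of 10 genes whose left-right difference differed between genotypes, in left (dark red) and right (dark blue) mutants and left (light red) and right (light blue) controls, 5 libraries each, with the geometric mean as a line. Nfasc is higher in right mutants than in right controls without overlap, while Aqp4 and Eya1 are lower in left mutants than in left controls without overlap.

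In other genes the genotypes lay apart mainly in the left atrium. Aqp4, a water channel, had 48.2 to 96.4 normalized reads in left mutants against 233 to 695 in left controls, and 90 to 172 in right mutants against 106 to 238 in right controls. It gave 1.5 in controls and -0.66 in mutants, a difference of -2.16 ± 0.38 (adjusted p = 0.0315, and 0.124 after correction). Eya1, a transcription cofactor with phosphatase activity, had 32.8 to 74.5 reads in left mutants against 110 to 163 in left controls, with 195 to 225 and 188 to 220 on the right (-1.37 ± 0.24). The transcript 1110012L19Rik had 404 to 884 reads in left and 255 to 436 in right mutants against 63.2 to 115 and 141 to 191 in controls, so that its left-right difference turned from -1.0 in controls to 0.81 in mutants (1.80 ± 0.28, adjusted p = 0.0226).

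In the 6 remaining genes the left-right difference was nearer 0 in mutants than in controls. Mrvi1, which links cGMP kinase to calcium release, had 91.0 to 144 and 160 to 235 normalized reads in left and right mutants against 242 to 604 and 1518 to 2628 in controls, so that the left-right difference shrank from -2.37 to -0.79 (1.58 ± 0.29). Kif1a, a kinesin motor, shrank from -4.43 to -3.16 (1.27 ± 0.23), and Mtap1a, a microtubule-associated protein, from -1.69 to -0.76 (0.93 ± 0.17). Phlda1 fell from 3.80 to 1.75 (-2.05 ± 0.38). Tmtc2 was at 1.15 in controls and -0.01 in mutants (-1.16 ± 0.21), and Fam107b at 1.2 and 0.01 (-1.19 ± 0.23, adjusted p = 0.0495). Apart from Fam107b, their adjusted p lay between 0.0315 and 0.0322.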

How the data were processed

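Total RNA of whole atria was sequenced after TruSeq RNA library preparation with kit version 2, which does not mark strand, from 300 ng of input. Per the notes of the submitters, alignment used STAR on mm10 and normalization used DESeq2, with no versions given. For either atrium the authors deposited a table whose per-library signal is the read count over a DESeq2 size factor that was set inside that table. Fold changes and p-values between genotypes, computed by the authors, stand in the same tables and were not used.

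Each column was divided by its smallest nonzero value, which gave back whole reads for 100% of values within 0.01 reads. In left mutant 3 that value lies so close to 1 that the check has little power. In the right table, entries without values (6275) and repeated entries (1203) were dropped first. The 2 tables were then joined on gene ID (33446 genes with values in both). After mt-Rnr1 and mt-Rnr2 had been dropped, all libraries of a fit were scaled together with median-of-ratios size factors. Testing was limited to genes averaging 10 or more normalized reads and used limma 3.58.1 in R 4.3.3 on log2 of the normalized reads plus 1, with the trend option of its empirical Bayes step. P-values were adjusted over all tested genes after Benjamini and Hochberg. Differences are on that scale, which understates those of low genes. GC content and length came from GENCODE M21 (99.62% of tested genes), and for the corrected fit a smooth trend in both was subtracted from each library. The requirement that both fits agree in direction was added after the data had been seen. The scripts were tested on simulated data.

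Alternatives were other pseudocounts (0.5 and 5), filters, scalings, edgeR 4.0.16 and DESeq2 1.42.0 on the recovered reads, the replicate number as a block, and omission of each library. The members and gene lists were chosen with earlier results of these data known. Named genes are Tbx5, Bmp10, members of the lists for the left-right cascade, the sinoatrial node and natriuretic peptides, the 15 largest differences in each direction of either fit (average of 50 or more, sides not overlapping, predicted genes and pseudogenes passed over), and up to 5 members of lowest adjusted p from other lists. Mrc1, Vamp7-ps, Xirp2, Fhl1, Lmod3, Hey2, Irx5 and those genes with a genotype difference that lay outside the 5 largest of each sign were chosen after their values were seen. Further list members were named without values, to show which genes made up a count. Correlation of other genes with Bmp10 was left out, because the libraries fall into separate clusters by atrium. Overlap with genes on the other strand was examined for 89 of the genes named. Of these 89, 36 share exon sequence with such a gene, so their reads cannot be told apart from those of that gene. The other named genes were not examined for this. Results of 3 genes are not reported here, and they were left out of the list counts but kept in every fit. Intervals and errors cover the spread between libraries, not shared effects of a table.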

Additional observations from a re-analysis of the deposited data

Results flagged for a closer look

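Groups of 5 libraries were examined for 80 of the named genes and for properties of the libraries such as depth. In 11 of 170 such groups, all of them for genes, 1 library lay far from the other 4, where chance gives about 1 in 20. Of these, 5 were left mutant 4, the left mutant with the highest share of mitochondrial rRNA (42.2%): Mmrn1 at 636.7 normalized reads (others 206.9 to 321.0), Tmem158 at 350.8 (56.1 to 134.2), Bmp4 at 133.7 (40.9 to 64.3), Gdf7 at 11.1 (0 to 2.0) and Rplp0 at 536.5 (407.1 to 429.6). In right mutant 1, Abcc8 was at 3155.3 (others 4424.4 to 4765.4) and Myh7 at 21977.6 (30838.1 to 34422.1), both low. In right mutant 4, A2m was at 177.5 (98.3 to 120.0) and Cacna2d3 at 302.5 (237.9 to 254.1), both high. Vsig4 was low in right mutant 2 at 384.6 (532.5 to 564.0), and Mapk10 was high in right mutant 3 at 171.6 (122.6 to 131.8). The calls of all these genes except Bmp4 held in both fits, and each direction held without the library concerned.

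The left-right difference differed between mutants and controls for 11 genes in the limma fit over 20 libraries, of which 10 are given here. The difference, mutants minus controls, was positive for 1110012L19Rik (1.80), Mrvi1 (1.58), Kif1a (1.27) and Mtap1a (0.93). It was negative for Nfasc (-2.62), Aqp4 (-2.16), Phlda1 (-2.05), Eya1 (-1.37), Fam107b (-1.19) and Tmtc2 (-1.16).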

How the results depend on the processing

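Against 5368 left and 5732 right calls, GC content and length together gave 3326 and 3733, GC content alone 3163 and 3788, the replicate block with GC and length correction 3268 and 3690, and a test against a 2-fold difference 1657 and 3188. Among calls shared by both fits (1889 left and 2509 right), the left count was 3319 with no filter and 3608 with quantile normalization, scaling to library totals alone gave 620 and 4194, and the test against a 2-fold difference gave 90 and 311. Scaling to library totals moved the median of all genes from -0.04 to -0.41, and the share of calls on the left from 48.4% to 37.6%, TMM moved the median to -0.12 and quantile normalization to 0.18. The cause was not tested. Single genes were followed through each alternative for 80 of those named, of which 70 were called in both fits. Of these 70, 6 lost that call under quantile normalization (Cacna1d, Cacna1g, Cacnb3, Corin, Gdf7 and Vsnl1) and 2 with library totals alone (Corin and Prox1). Each omission of a library lost 0 to 3 (among Corin, Gdf7, Id3 and Vsnl1), and none turned. With a minimum mean of 50, Gdf7, Id3, Kcnh2 and Nkx2-5 lost the call, and Acvr2b and Vsnl1 were not tested. Named genes outside the 70 lost calls too. With library totals alone the members higher left fell from 3 to 1 in the sarcomere list and from 6 to 3 in the immediate early list. They fell from 2 to 1 in the ventricular list and from 1 to 0 in the BMP list. Of the 80 genes followed through each alternative, 3 changed direction, namely Hcn2, Tbx3 and Npr1. Ift88 and Dand5, which were named above but not among the 80, also turned between the uncorrected and corrected fits. After correction for GC and length, with or without the replicate block, Hcn2 was 0.51, Tbx3 1.19 and Npr1 0.99, after correction for GC alone they were 0.52, 1.16 and 0.98, and Tbx3 was 0.67 with quantile normalization. Under quantile normalization the calls of Corin (0.01, adjusted p = 0.907), Vsnl1 and Bmp4 were also lost.

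Left and right libraries were not treated as pairs, because the labels tie no number to an animal. The 5 correlations of same-numbered deviations were -0.04, 0.12, 0.16, 0.12 and 0.19, and -0.07, 0.09, 0.13, 0.14 and 0.18 after correction. That 4 of 5 right libraries were closest to their own number without correction is a hint of pairing from the data, not from the design. After correction right mutant 2 was closest to left mutant 1. With the replicate block the counts were 5364 and 5733, and 8 for the difference between genotypes. Without 1 library at a time they ranged from 5174 to 5487 left and from 5514 to 5848 right, from 1688 to 1939 and from 2169 to 2627 in both fits.

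The count of 11 genes whose difference differed between genotypes was the least stable. It was 17 with a pseudocount of 5, 4 with library totals alone, 5 after correction for GC alone, 40 with DESeq2 and 10 with edgeR, and without 1 library it ranged from 0 to 15. The limma count was 0 without right control 1 or 3, right mutant 3 or 5, left control 2 or 3 or left mutant 5, with 730 to 1116 genes at an unadjusted p under 0.05. The 10 genes described kept their call in 1 (Fam107b) to 13 (1110012L19Rik) of 20 such omissions and in 8 (Fam107b) to 13 of 14 other fits. Differences in library make-up between atria kept their direction without any 1 library: 16.5 to 22.2 percentage points for mitochondrial rRNA.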

Other observations

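Immediate early and stress genes switch on quickly when cells are stimulated. Of 24 tested, 6 were higher left in both fits (Nr4a3, Hspa1b, Hspa1a, Nr4a2, Fos and Atf3) and 2 higher right (Junb and Myc), against 13.6% and 18.0% of all genes, and 3 and 3 were when scaled to library totals alone. The list median was -0.19, and 1.06 after correction, so its side depended on the fit.

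Some features had reads on 1 side only. Summed over the mutant libraries, mt-Atp6 had 89 and mt-Co3 278 reads on the left and 0 on the right, the processed pseudogene Vamp7-ps had 3433 and 0, and Clec4f, a lectin of liver macrophages, had 0 and 184. The tables of the 2 atria also differ in the genes they hold values for, and what part the counting had in these zeros was not tested.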
